A study of Homo sapiens with 4 samples.

Results

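Retained-intron transcripts are RNAs of a coding gene in which an intron, or a stretch of one, is left in place. In the 4 libraries described here, 1595 rows typed as retained intron in GENCODE, belonging to 1390 protein-coding genes, reached 5 FPKM (fragments counted per kilobase of RNA, scaled to the mapped total) or more in at least 1 library. They were chosen from 24376 annotated retained-intron rows of coding genes, out of 393483 transcript rows in all. One member was found in 1204 genes, 170 genes had 2, and 16 genes had 3 or more. At the same level stood 11125 rows typed as protein coding, 2821 typed as processed transcripts and 1647 typed as targets of nonsense-mediated decay. The rule has a sharp edge: the lowest members were rows of NIN at 5.00, ICAM5 at 5.02 and PERM1 at 5.03 FPKM in their highest library, and the rows just outside were CCDC149, SC5D and TRIM22, each at 4.97 FPKM.

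The source was WI-38, a line of fibroblasts from human fetal lung whose divisions cease once its doublings are used up. Young cells were at a population doubling level (PDL) of 21 and replicatively senescent cells at PDL 60. Whole cells and mitoplasts of both ages each gave 1 library. Mitoplasts are mitochondria stripped of the outer membrane; here they were treated with RNase A before and after they were pelleted. With 1 library per group no difference below has a replicate check or a p-value, and a difference between libraries cannot be told apart from one between conditions. The files hold no counts, so depth and counting error are unknown.

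Introns are normally removed while the RNA is still being made, by a spliceosome that recognises a GU at the start of the intron (the donor site) and an AG at its end (the acceptor site). A transcript that keeps an intron is usually held in the nucleus, or is degraded after export because the intron brings an early stop codon. Many annotated retained-intron transcripts are short fragments of a gene that start or stop inside an intron, so the type alone does not mean a full-length RNA with 1 intron left in it.

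The quantity followed below is the share of a row: its FPKM as a percentage of the summed FPKM of all annotated transcripts of its gene in that library. Shares were compared where the gene was at 5 FPKM or more in both libraries, and a difference of 20 percentage points or more was counted.

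The sequences of the introns concerned show ordinary splice sites. The 4 introns below are printed because a member spans each from end to end and its levels are described below; each is in capitals with 20 exonic bases in lower case on either side, 5′ to 3′, from the GENCODE 29 annotation and GRCh38 sequence. RBM8A has a second annotated acceptor 3 bases further on.
ACTB intron, chr7:5529381-5529554, minus strand: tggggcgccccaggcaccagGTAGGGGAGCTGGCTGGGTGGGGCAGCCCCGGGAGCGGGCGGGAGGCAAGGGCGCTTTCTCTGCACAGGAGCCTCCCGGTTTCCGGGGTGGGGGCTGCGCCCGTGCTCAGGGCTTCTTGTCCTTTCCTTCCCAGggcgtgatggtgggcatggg
HMGN1 intron, chr21:39348432-39348564, minus strand: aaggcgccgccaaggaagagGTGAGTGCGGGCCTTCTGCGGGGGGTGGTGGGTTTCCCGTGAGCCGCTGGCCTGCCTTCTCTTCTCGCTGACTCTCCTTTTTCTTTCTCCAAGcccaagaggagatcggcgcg
CASC3 intron, chr17:40161892-40162021, plus strand: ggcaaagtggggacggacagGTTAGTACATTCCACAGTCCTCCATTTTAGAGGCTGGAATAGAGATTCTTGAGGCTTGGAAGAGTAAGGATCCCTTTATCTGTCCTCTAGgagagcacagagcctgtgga
RBM8A intron, chr1:145926867-145927037, minus strand: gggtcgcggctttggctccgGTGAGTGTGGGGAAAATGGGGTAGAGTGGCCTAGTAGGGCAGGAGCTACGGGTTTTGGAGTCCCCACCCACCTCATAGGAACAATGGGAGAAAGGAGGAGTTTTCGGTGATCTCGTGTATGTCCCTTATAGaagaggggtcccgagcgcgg

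Another 6 members end inside an intron or begin in one, so that their annotated exons run across a splice site. Whether reads cross these sites was not tested. The first 3 run across a donor, shown as 24 exonic bases followed by 36 intronic bases with the first 6 intronic bases in capitals. The last 3 run across an acceptor, shown as 36 intronic bases followed by 24 exonic bases with the last 3 intronic bases in capitals.
PDE3A donor, chr12:20556687-20556746, plus strand: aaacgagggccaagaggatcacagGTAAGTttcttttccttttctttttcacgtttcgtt
TRIO donor, chr5:14287040-14287099, plus strand: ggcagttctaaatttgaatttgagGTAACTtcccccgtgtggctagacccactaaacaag
UBE2D2 donor, chr5:139614594-139614653, plus strand: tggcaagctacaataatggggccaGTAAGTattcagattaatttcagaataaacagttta
OS9 acceptor, chr12:57716376-57716435, plus strand: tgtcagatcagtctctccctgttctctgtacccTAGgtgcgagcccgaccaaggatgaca
TARS1 acceptor, chr5:33466835-33466894, plus strand: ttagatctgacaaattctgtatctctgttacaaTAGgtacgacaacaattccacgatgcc
MICAL2 acceptor, chr11:12259759-12259818, plus strand: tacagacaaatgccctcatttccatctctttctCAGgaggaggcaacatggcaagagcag

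Across all members, 1010 donors and 957 acceptors were crossed in this way. GT stood at 98.5% of those donors and AG at 99.8% of those acceptors, and 52.6% of donors began with GTAAG or GTGAG, read on the transcript strand. For the other retained-intron rows, at lower levels, that last figure was 51.3%. The members' splice sites thus had about the same first bases as those of rows that were not seen at 5 FPKM.

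Retained-intron rows made up a small part of the annotated RNA of coding genes in each library. Their share of the summed annotated FPKM of those genes was 4.92% in whole cells at PDL 21 and 5.83% at PDL 60, and 2.69% in mitoplasts at PDL 21 and 8.63% at PDL 60. The low value in young mitoplasts moved with the messenger RNAs of the mitochondrial genome, which have no introns and are counted as coding. With those genes left out, the 4 shares were 6.45%, 6.18%, 6.49% and 9.83% in the same order. The first 3 libraries then lay within a narrow range and the senescent mitoplast library lay above it. Other row types also differed there. With all coding genes kept, processed-transcript rows held 16.3%, 19.8%, 9.18% and 38.3% in the same order. Protein-coding rows held 72.5%, 66.5%, 85.8% and 48.1%, and rows typed as decay targets 6.13%, 7.80%, 2.28% and 4.83%. The members held between 95.9% and 98.6% of the retained-intron FPKM of a library.

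**Figure D1:**
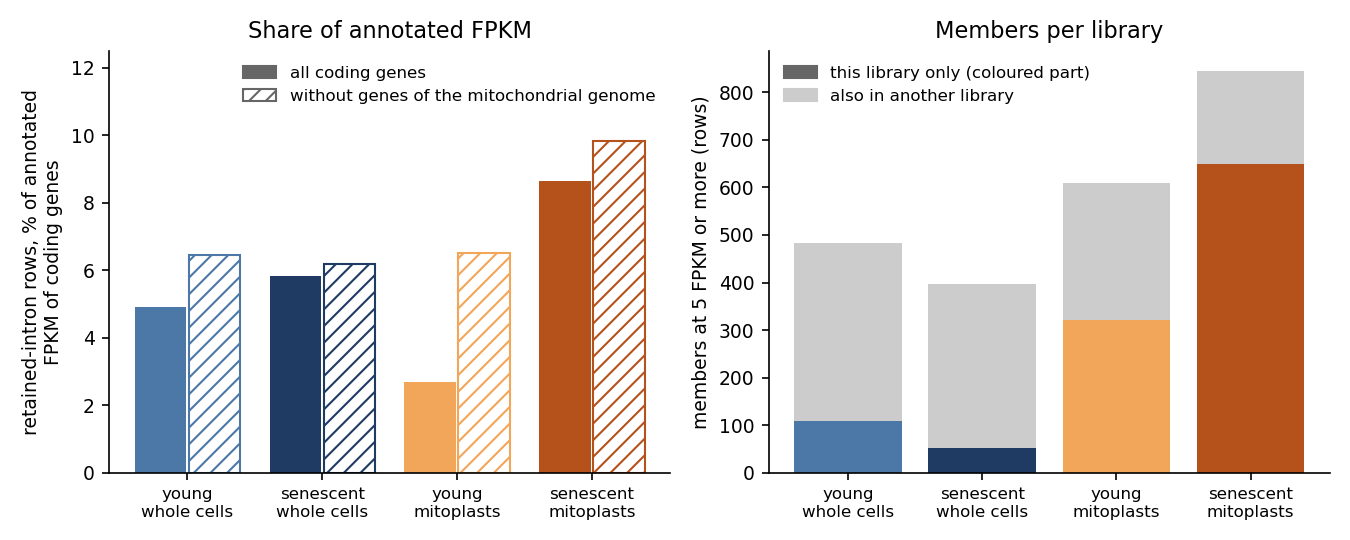
The left panel plots the share of annotated FPKM of coding genes held by retained-intron rows in each of the 4 libraries, with (solid) and without (hatched) the genes of the mitochondrial genome. The right panel plots the number of members at 5 FPKM or more, split into those at that level in 1 library only and those also in another; 649 of the 845 in senescent mitoplasts were in that library alone.

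The annotated cell and fraction markers set the frame for these values. All 10 fibroblast markers were at 5 FPKM or more in both whole-cell libraries, 9 were in young mitoplasts and 8 in senescent mitoplasts, where VIM was listed at 0. The summed FPKM of the fibroblast markers was 8111, 4379, 5638 and 1028 in the order young and senescent whole cells, young and senescent mitoplasts; epithelial, endothelial and blood markers summed to at most 32.5 FPKM per list. MALAT1, a nuclear RNA, was at 1265, 2305, 89.0 and 507 FPKM in that order, and NEAT1 was listed at 0 throughout. The mitochondrial messengers MT-CO1, MT-CO3 and MT-ND4, which living cells use, were listed at 0 in both senescent libraries, so a 0 is reported below only as listed. Assembled transcripts, which carry no gene type, held 53.7%, 76.2%, 92.7% and 97.3% of all FPKM in the 4 libraries and were left out of every share. The part that nuclear RNA or assembled transcripts have in the results below was not tested.

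Most members were present in 1 library. Of the 1595, 1003 (62.9%) were above 0 in a single library and 95 were above 0 in all 4. At 5 FPKM or more, 483 and 396 members were counted in young and senescent whole cells, and 609 and 845 in young and senescent mitoplasts. Of these, 108, 53, 321 and 649 reached that level in that library alone. Both whole-cell libraries and neither mitoplast library held 112, while both mitoplast libraries and neither whole-cell library held 50. Both young libraries alone held 46 and both senescent libraries alone held 14. Over all rows of coding genes at 5 FPKM or more, 33.2% were above 0 in a single library, 15.1% reached 5 FPKM in both whole-cell libraries alone and 1.82% in both mitoplast libraries alone; for the members the last pair of shares was 7.02% and 3.13%. Since 5 FPKM in 1 library was enough to be chosen, these counts describe the choice.

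A few rows at high levels held much of this FPKM. The 10 highest rows held 34.6%, 40.5%, 33.9% and 19.9% of the retained-intron FPKM of the young whole-cell, senescent whole-cell, young mitoplast and senescent mitoplast libraries. PDE3A, a phosphodiesterase that breaks down cyclic AMP, had the highest row in both mitoplast libraries (ENST00000542675). It stood at 1446 and 2175 FPKM in whole cells at PDL 21 and PDL 60, and at 4607 and 2435 FPKM in mitoplasts at the same 2 ages. No other annotated row of PDE3A was above 0, so its share was 100% in each library. The row is 685 nt long, 75% of it lies outside the coding exons, and it runs past the donor printed above.

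Whole cells held a different set of high rows. RAI14, which encodes an actin-binding ankyrin-repeat protein, had a row of 225 nt at 2997 and 3597 FPKM in young and senescent whole cells. It was listed at 0 in both mitoplast libraries, and only 4.44% of its bases lie outside the coding exons of RAI14. TRIO, a guanine nucleotide exchange factor, had a row at 2980 and 2055 FPKM in young and senescent whole cells, 0 in young mitoplasts and 88.6 in senescent mitoplasts. Its share was 93.9%, 93.5%, 0% and 93.9% in that order. Only 6.78% of the TRIO row lies outside the coding exons. In TRIO the level was thus far lower in mitoplasts while the share in 3 libraries was nearly the same.

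UBE2D2, a ubiquitin-conjugating enzyme, had a row detected in all libraries, at lower levels in mitoplasts. Its row of 256 nt was at 951 and 621 FPKM in young and senescent whole cells and at 150 and 63.2 in young and senescent mitoplasts, with shares of 94.9%, 91.3%, 72.1% and 73.3%. ACTB, cytoplasmic beta-actin, had a row with the printed intron of 134 nt at 818 and 821 FPKM in the whole-cell libraries, 0 in young mitoplasts and 260 in senescent mitoplasts. Its share of ACTB was 15.3%, 21.7%, 0% and 48.9%, while the coding rows of ACTB summed to 4530, 2964, 3176 and 272 FPKM. The level of the ACTB row in senescent mitoplasts was below that in whole cells, and its share there was above.

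Mitoplasts had high rows of their own. NPM1, a nucleolar chaperone, had a row of 268 nt at 0 and 0 FPKM in whole cells, 1045 in young mitoplasts and 280 in senescent mitoplasts; NPM1 has a near-identical copy, NPM1P7, so reads can be split between them. ASPH, an aspartate hydroxylase of the endoplasmic reticulum, and RACK1, a ribosome-bound scaffold, had rows at 230 and 207 FPKM in senescent mitoplasts that were listed at 0 in the other 3 libraries. In RACK1 that row held 49.9% of the gene's FPKM, beside coding rows at 107 FPKM, against coding rows at 2160, 797 and 2351 FPKM in the other libraries. Short length went with high level in whole cells: the median of members under 500 nt was 58.5 and 58.2 FPKM in young and senescent whole cells, against 11.4 and 11.4 for members of 1000 nt or more. In mitoplasts the same medians were 13.7 and 23.2 against 11.1 and 8.23.

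Members at 5 FPKM or more had median shares below those of the other rows of coding genes at that level. The median share of members at 5 FPKM or more was 58.6% and 60.1% in young and senescent whole cells, and 59.4% and 81.6% in young and senescent mitoplasts, while that of the other rows was 66.4%, 65.4%, 70.6% and 97.4%. A share within 0.1 points of 100% was held by 49, 33, 85 and 339 of them (10.1%, 8.33%, 14% and 40.1%). The other rows of coding genes at that level were more often alone in their gene, at 27.9%, 27.1%, 32.7% and 49.0%, and shifted in the same direction in senescent mitoplasts. All coding rows of the gene were listed at 0 for 97, 82, 162 and 472 of the members, which is 20.1%, 20.7%, 26.6% and 55.9%. Rows typed as processed transcripts lacked a coding row above 0 in 29%, 26.5%, 31.4% and 62.4% of cases, so the members' shares were lower in each library. Counted over genes at 5 FPKM or more, retained-intron rows held the majority of annotated FPKM in 320 of 6867, 282 of 6457, 447 of 5904 and 671 of 4478 genes (4.66%, 4.37%, 7.57% and 15.0%).

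**Figure D2:**
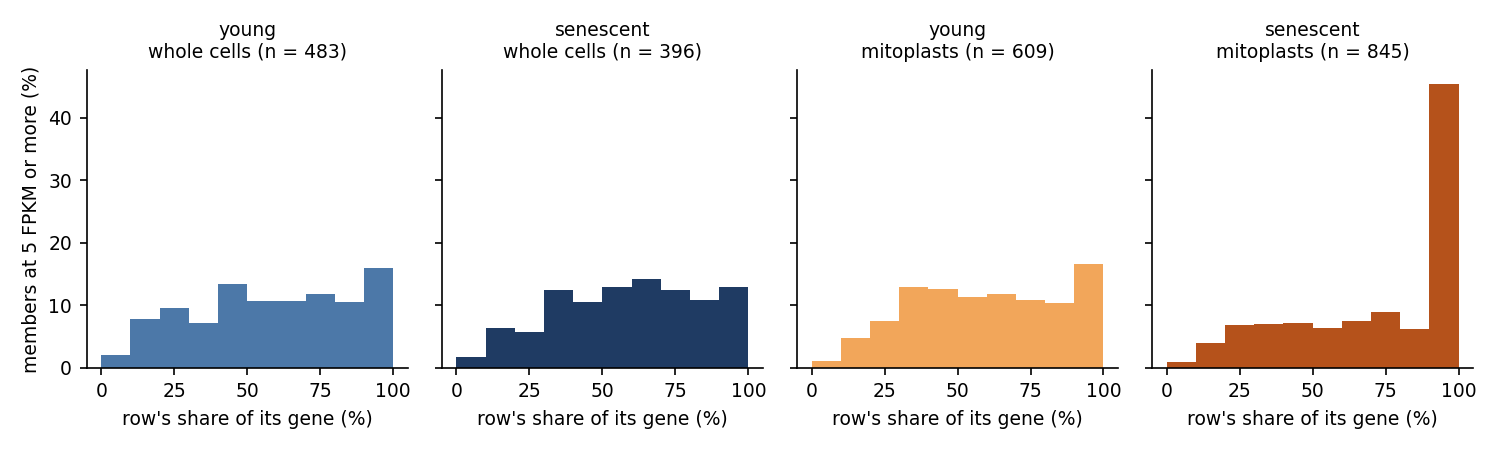
Histograms of the share that each member holds of its gene's annotated FPKM, for the members at 5 FPKM or more in each library; the vertical axis is the percentage of those members. The bar from 90% to 100% is far taller in senescent mitoplasts, where 339 of 845 members had a share within 0.1 points of 100%.

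A few genes were represented by the retained-intron row whatever the library. RPL17, a protein of the large ribosomal subunit, had a row at 620 and 146 FPKM in young and senescent whole cells and 536 and 135 in young and senescent mitoplasts, with a share of 100% in all 4. Only 2.10% of that row is intronic, and reads can be shared with the copy RPL17P7 and with an overlapping gene on the same strand. CSTB, a cathepsin inhibitor, had a row of 3744 nt at 77.2, 88.8, 152 and 109 FPKM in that order, with shares of 91.9%, 91.7%, 91.7% and 93.3%. TRAF7, a ubiquitin ligase, had one at 37.0, 27.4, 38.9 and 17.5 FPKM, with shares between 81.6% and 88.3%. Only 4.44% of the TRAF7 row is intronic. APOLD1, an apolipoprotein-L-like protein, was at 126, 24, 21.5 and 10.9 FPKM and 100% throughout. These rows were chosen for having the highest lowest share over the 4 libraries, so a high share in each is fixed by the choice. In RPL17 and APOLD1 no other annotated row was above 0, which makes the share 100% at any level. The levels differed between libraries. STX16-NPEPL1, annotated as a read-through of neighbouring genes, also had a share of 100% in all 4.

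The first comparison set senescent against young whole cells. Of 1113 members that could be compared, 72 (6.47%) had a share higher by 20 points or more in senescent cells and 113 (10.2%) a lower one. Over all rows of coding genes at 5 FPKM or more, 11.2% were higher and 11.7% lower. Of the 72, 48 were at 0 in young cells, and of the 113, 84 were at 0 in senescent cells. Among the 345 members above 0 in both libraries, 24 were higher and 29 lower, beside 9.01% and 9.13% of all rows. The median difference was 0 points, since many members were listed at 0 in both. Of the 1113 compared, 720 reached 5 FPKM outside senescent mitoplasts, a choice added after seeing the data. The same 72 and 113 were 10% and 15.7% of these 720, beside 12.8% and 13.3% of all rows chosen that way.

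Among members above 0 at both ages, shares that differed came from genes of varied roles. SPARC, a collagen-binding matrix protein, had a retained-intron row at 97.3 FPKM in young and 272 in senescent whole cells. Its share there was 49.5% and 71.2%. In young and senescent mitoplasts the share went the other way, at 54.7% and 27.6%. Only 3.38% of the SPARC row lies outside the coding exons. In UBE3C, a ubiquitin ligase, the level hardly differed at 54.3 and 50.0 FPKM and the share was 38.8% in young and 75.6% in senescent cells. ANAPC4, a subunit of the anaphase-promoting complex, was at 19.0 and 26.8 FPKM with shares of 52.7% and 89.6%, and WWP2, another ubiquitin ligase, was at 33.3 and 18.6 FPKM with shares of 51.6% and 88.6%. PTCD3, a mitochondrial ribosome protein, had shares of 23.1% and 80.2% at only 5.20 and 8.61 FPKM.

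Lower shares in senescent whole cells included rows whose own level was higher there. NRG1, a ligand of ERBB receptors, had a retained-intron row at 115 FPKM in young and 176 in senescent whole cells, yet its share was 100% and 53.8%. Coding rows of NRG1 were listed at 0 at PDL 21 and reached 151 FPKM at PDL 60. LPCAT2, an enzyme of phospholipid remodelling, had shares of 94.5% and 31.9% at 29.3 and 32.5 FPKM. SENP2, a SUMO protease, had shares of 80.5% and 37.7% at 19.4 and 16.5 FPKM, and PDK2, a pyruvate dehydrogenase kinase, had 100% and 63.9% at 20.4 and 32.1 FPKM. In NRG1, LPCAT2 and PDK2 the level of the row was higher in senescent cells while its share was lower. Only 2.29% of the PDK2 row lies outside the coding exons.

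The second comparison set senescent against young mitoplasts. Of 880 members compared, 461 (52.4%) had a share higher by 20 points or more in the senescent library and 229 (26.0%) a lower one, with a median difference of 24.4 points. Over all rows of coding genes, 30.0% were higher and 31.8% lower. Rows at 0 made most of this: 403 of the 461 were listed at 0 in young mitoplasts, and 203 of the 229 were listed at 0 in senescent mitoplasts. Among the 159 members above 0 in both, 58 were higher and 26 lower, beside 25.6% and 19.7% of all rows.

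Retained-intron rows were not alone in this. Processed-transcript rows, which also lack an annotated reading frame, were higher in 46.0% and lower in 23.8% of those compared, whereas protein-coding rows were higher in 22.1% and lower in 35.5%. Since the members were chosen partly for being high in a mitoplast library, the same comparison was made over the 575 members at 5 FPKM or more in a whole-cell library, a choice that used no mitoplast value. Of the 289 of these that could be compared, 64 (22.1%) were higher and 94 (32.5%) lower in senescent mitoplasts. Over all rows chosen in the same way, 14.8% were higher and 33.9% lower. The excess of higher over lower shares was thus seen in members picked with mitoplast values and not in those picked from whole cells. In the reverse check, 883 members chosen in a mitoplast library were compared between whole cells. Of these, 38 (4.30%) were higher and 50 (5.66%) lower with senescence, against 7.98% and 8.60% of all rows. However, 596 of the 883 were listed at 0 in both whole-cell libraries and could not differ, beside 2665 of 8031 for all rows. The lower percentages of the members are therefore not read as a result.

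Members above 0 in both mitoplast libraries give the clearest single cases. TARS1, the cytosolic threonyl-tRNA synthetase, had a row at 30.9 and 20.7 FPKM in young and senescent whole cells and 21.3 and 23.9 in young and senescent mitoplasts. Its share was 44.8%, 37.7%, 39.1% and 100%, because the coding rows of TARS1, at 38.1, 26.6 and 33.2 FPKM in the first 3 libraries, were listed at 0 in the last. RPS28, a protein of the small ribosomal subunit, had a row at 88.9, 35.9, 140 and 35.4 FPKM with shares of 17.3%, 18.6%, 25.1% and 100%. MEPCE, the methyltransferase that caps 7SK RNA, had shares of 46.5%, 36.1%, 32.6% and 100% at 19.4, 7.60, 14.2 and 11.4 FPKM. That row overlaps a coding gene on the opposite strand, and only 4.05% of its bases lie outside the coding exons of MEPCE. ST7 and PTDSS2, the latter a phosphatidylserine synthase, had shares of 34.5% and 16.9% in young mitoplasts and 100% in senescent mitoplasts. In TARS1 the level of the row changed little and the other transcripts of the gene were listed at 0.

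Some rows had a low share in senescent mitoplasts. HMGN1, a nucleosome-binding protein, had the row with the printed intron of 93 nt at 270 and 65.3 FPKM in young and senescent whole cells and 242 and 14.8 in young and senescent mitoplasts. Its share was 86.0%, 100%, 86.6% and 22.0%. MICAL2, an enzyme that oxidises actin, had a row at 266, 280, 295 and 7.45 FPKM in that order, with shares of 47.2%, 54.8%, 90.4% and 14.3%. For MICAL2 the 3 other libraries lay close together in level, and senescent mitoplasts stood apart. PIP5K1A, a phosphoinositide kinase, SFXN1, a mitochondrial serine transporter, and WASHC3, a subunit of the WASH complex, had shares of 84.3%, 69.6% and 56.8% in young mitoplasts. In senescent mitoplasts the shares were 12.3%, 22.6% and 3.20%. Only 1.15% of the PIP5K1A row lies outside the coding exons.

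The third comparison set young mitoplasts against young whole cells. Of 1025 members, 300 (29.3%) had a share higher by 20 points or more in mitoplasts and 172 (16.8%) a lower one, beside 22.7% and 23.5% of all rows. Of these 1025, 689 reached 5 FPKM outside senescent mitoplasts. Of the 689, 297 (43.1%) were higher and 171 (24.8%) lower, beside 25.7% and 26.7% of all rows chosen that way. That choice still used both libraries compared, and 321 members reached 5 FPKM in young mitoplasts alone. For a row chosen there and listed at 0 in whole cells, the choice fixes the direction. Of the 300, 254 were at 0 in whole cells, and of the 172, 122 were at 0 in mitoplasts. Among the 255 members above 0 in both, 46 were higher and 50 lower, beside 19.3% and 16.6% of all rows. The excess of higher shares was therefore not present among members seen in both libraries. RIPOR1 had a row whose level was alike at 17.5 FPKM for whole cells and 16.5 for mitoplasts, with a share of 3.19% and 61.6%; the coding rows of RIPOR1 were at 532 and 10.3 FPKM. RAB8A, a GTPase of vesicle transport, had shares of 26.5% and 87.1%, at 42.1 and 59.8 FPKM. RAN, the GTPase of nuclear transport, had shares of 31.2% and 81.4%, at 36.3 and 105 FPKM, with a near-identical copy, RANP1. Lower shares in mitoplasts were found for NME7 (93.8% and 26.7%), FAM133B (70.6% and 10.3%), NAP1L4, a histone chaperone (89.6% and 32.6%), and ATG3, an enzyme of autophagosome formation (92.0% and 38.4%). Only 4.21% of the NAP1L4 row lies outside the coding exons.

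The fourth comparison set senescent mitoplasts against senescent whole cells. Of 911 members, 514 (56.4%) had a share higher by 20 points or more in mitoplasts and 128 (14.1%) a lower one, with a median difference of 29.2 points. All rows of coding genes gave 29.7% and 32.4%. From 0 in whole cells came 463 of the 514, and 107 of the 128 were at 0 in mitoplasts. Among the 139 members above 0 in both, 51 were higher and 21 lower, beside 26.3% and 19.5% of all rows. LAMB2, a laminin chain of basement membranes, had a row at 63 and 44 FPKM in young and senescent whole cells and 0 and 42.7 in young and senescent mitoplasts; its share was 15.1%, 12.4%, 0% and 100%. Its level was thus alike in senescent whole cells and mitoplasts. BCLAF1, an RNA-binding nuclear protein, had a row at 130, 58.5, 71.9 and 27.3 FPKM with shares of 100%, 83.9%, 80.8% and 34.8%. FADS3, a sphingolipid desaturase, had shares of 78.5% in senescent whole cells and 26.4% in senescent mitoplasts, and SMTN, smoothelin of contractile cells, had 72.5% and 17.5%.

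**Figure D3:**
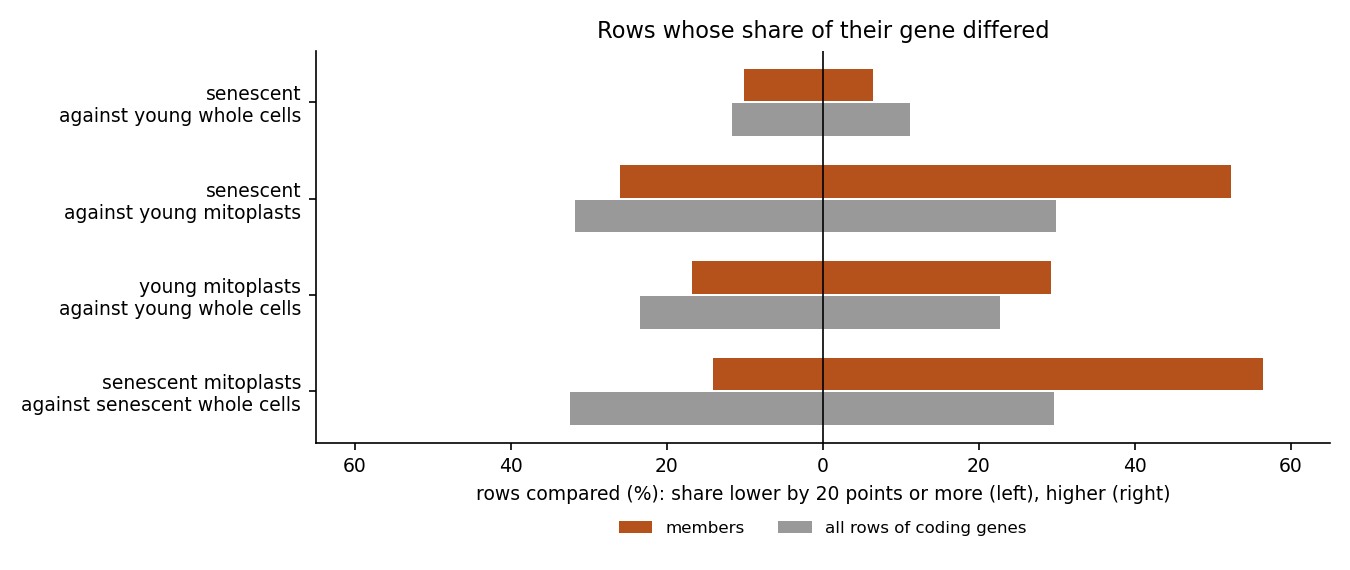
Percentage of rows whose share of their gene was higher (right) or lower (left) by 20 points or more in each of the 4 comparisons, for the members (orange) and for all rows of coding genes (grey). In both comparisons that involve the senescent mitoplast library, over 50% of the members were higher, 52.4% and 56.4%; the rule that chose the members used the same values.

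The young and the senescent fraction comparisons share no library and can be set beside each other. Of 713 members with the gene at 5 FPKM or more in all 4 libraries, 51 (7.15%) had a higher share in mitoplasts at both ages and 39 (5.47%) a lower one, beside 4.30% and 11.4% of all rows. The share was higher in mitoplasts at PDL 21 and lower at PDL 60 in 21 members, beside 5.16% of all rows, and the reverse in 16, beside 3.08%. For the comparisons of age in whole cells and in mitoplasts, 11 members (1.54%) were higher with senescence in both and 10 (1.40%) lower in both, beside 1.47% and 3.21% of all rows. Opposite signs were found in 12 that were higher in whole cells and lower in mitoplasts, beside 3.41%, and in 7 with the reverse, beside 1.65%.

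Of 77 members above 0 in all 4 libraries, with their gene at 5 FPKM or more in each, 8 had a share higher by 20 points or more in mitoplasts at both ages (10.4%), beside 5.29% of all rows under the same limits. They were chosen after their values were seen, because their number is small. OS9, a lectin of protein quality control in the endoplasmic reticulum, had a row at 54.1 and 45.9 FPKM in young and senescent whole cells and 14.3 and 28.7 in young and senescent mitoplasts, with shares of 43.2%, 35.7%, 82.2% and 100%. The coding rows of OS9 were at 71.1, 82.5, 3.09 and 0 FPKM. LAPTM4A, a lysosomal membrane protein, had a row at 38.2, 170, 83.4 and 146 FPKM with shares of 48.1%, 65.6%, 76.9% and 85.6%. GAR1, a protein of box H/ACA particles, had shares of 69.4%, 44.0%, 93.1% and 100%, and ZNF638, a zinc-finger RNA-binding protein, had 13.2%, 16.7%, 45.5% and 54.6%. RIPOR1, MRPL10, RPAP2 and DPM2 were the other four. Of the 77, 1 had a lower share in mitoplasts at both ages, beside 4.59% of all rows: ZNF317, at 100%, 100%, 10.3% and 19.4%. None of the 77 was higher with senescence in both fractions, beside 1.13% of all rows, and 1 was lower, beside 2.20%. That row was of TMED2, a cargo receptor of early secretion, at 77.7% and 56.2% in young and senescent whole cells and 67.0% and 43.5% in young and senescent mitoplasts.

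**Figure D4:**
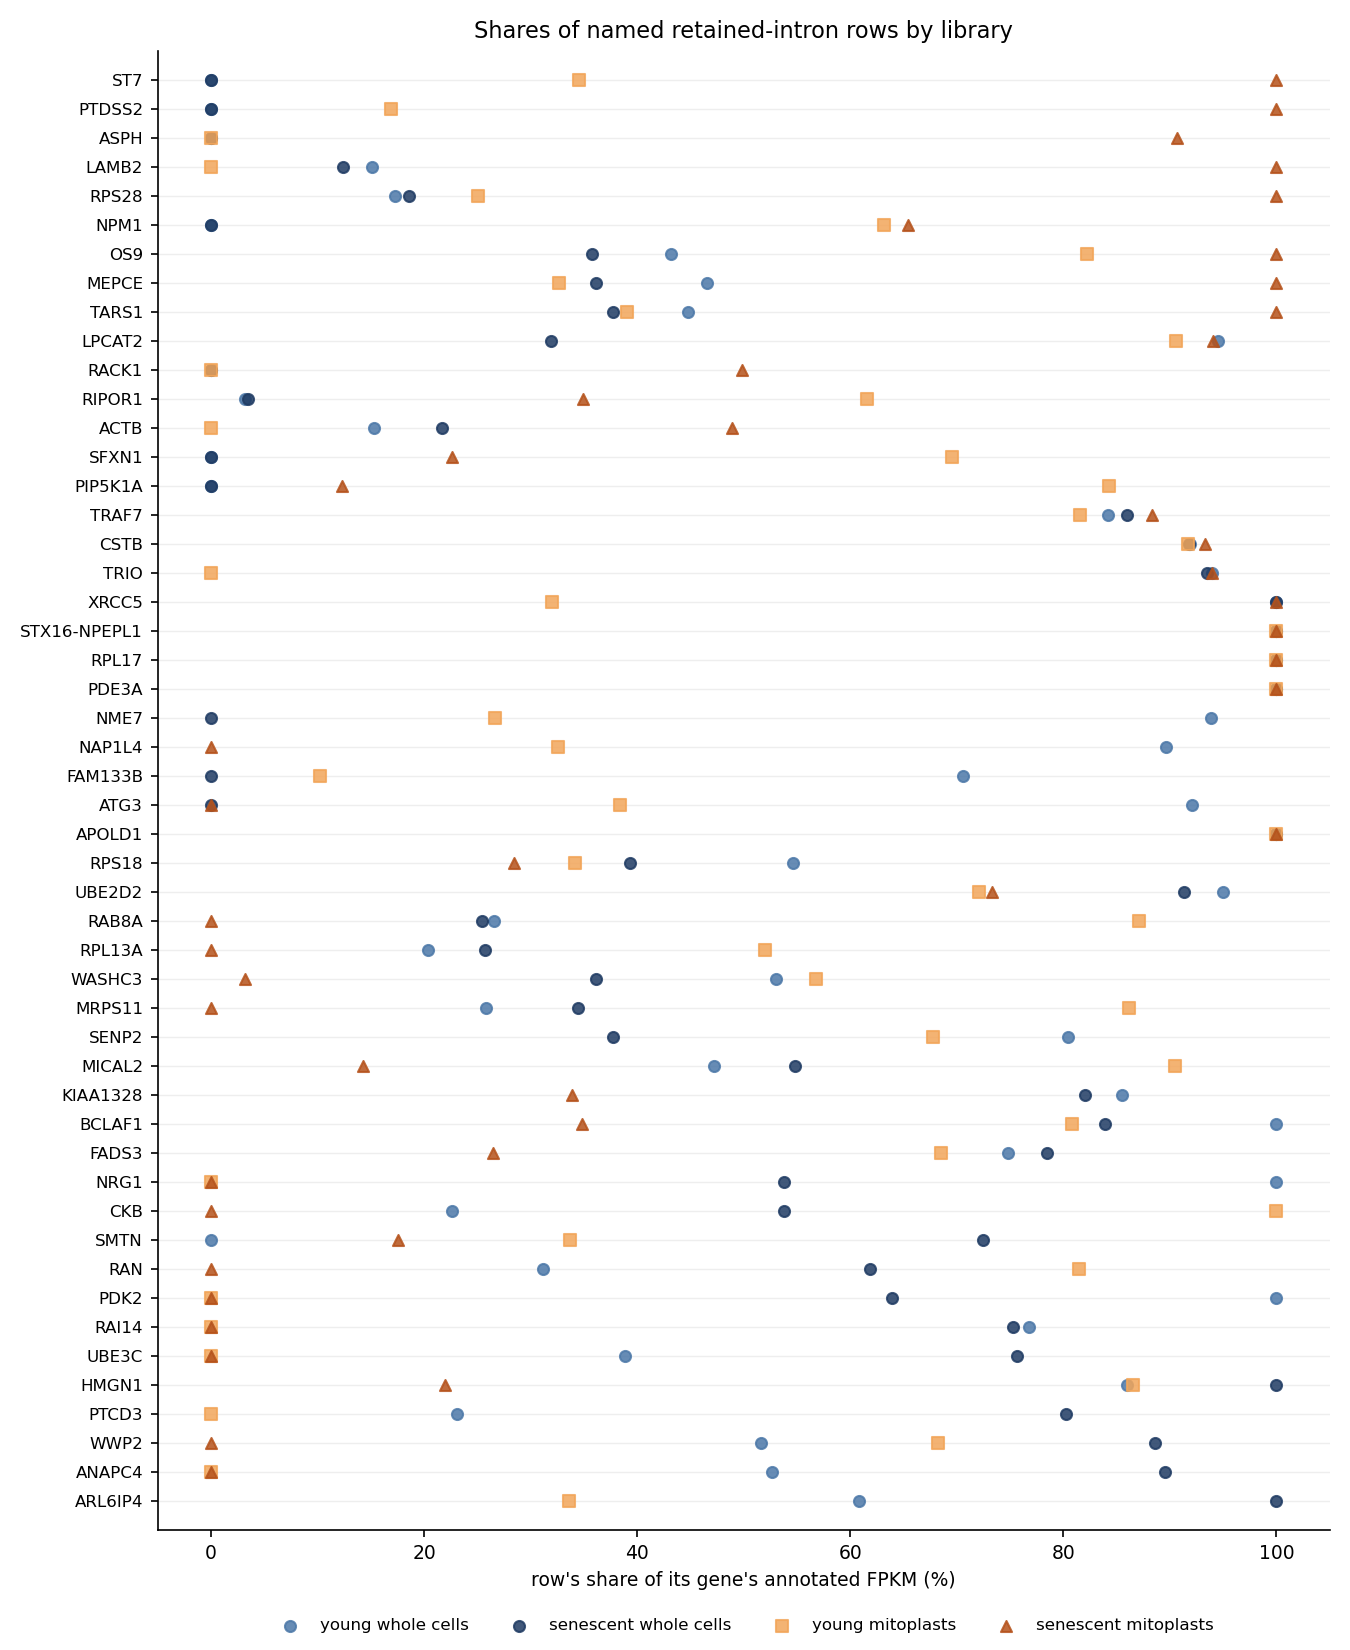
Share of the gene's annotated FPKM held by each named row in the 4 libraries (circles for whole cells, a square and a triangle for young and senescent mitoplasts), ordered by the difference between senescent mitoplasts and senescent whole cells; a symbol is missing where the gene has no share in that library. LAMB2, RPS28, OS9, MEPCE and TARS1, near the top, lie at 100% in senescent mitoplasts, and HMGN1 and RAN, near the bottom, lie at 22.0% and 0% there.

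Genes of the splicing machinery were looked at next, because several of them are known to regulate their own output through retained or decay-prone transcripts. Members were found in 6 of 21 SR proteins and their regulators at 5 FPKM or more, 8 of 24 hnRNP proteins and 10 of 32 core spliceosome proteins, while 1390 of 9359 coding genes (14.9%) had one. Their rows were mostly of the senescent mitoplast library: 5 of the 7 SR rows, 7 of the 12 hnRNP rows and 9 of the 12 spliceosome rows were above 0 there alone, beside 603 of all 1595 members (37.8%). SRPK1, a kinase of SR proteins, had a row at 78.9 FPKM in senescent mitoplasts with a share of 97.7%, and was listed at 0 elsewhere. TRA2A and SRSF5, both SR-type splicing regulators, had rows at 31.6 and 23.4 FPKM there, with shares of 63.8% and 48.2%, and CLK1, which phosphorylates SR proteins, had one at 19.4 FPKM with 100%. SNRPF and SNRPA1, proteins of small nuclear ribonucleoproteins, had rows at 27.1 and 21.1 FPKM and 100% in that library, where their coding rows were listed at 0.

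Other splicing genes went the other way or stood in whole cells. SRSF2 had a row at 38.9 and 26.1 FPKM in young and senescent whole cells, 43.2 in young mitoplasts and 0 in senescent mitoplasts. That row overlaps a coding gene on the opposite strand, and 0% of its bases lie outside the coding exons of SRSF2. SNRPG, an Sm protein, had the pattern 42.2, 16.7, 72.5 and 0 FPKM in the same order, with a share of 70.7%, 70.9%, 70.8% and 0%. LUC7L2, a U1-associated protein, had a row at 69.2 and 51.7 FPKM in the whole-cell libraries, with shares of 53.5% and 86.8%, and 0 in both mitoplast libraries. HNRNPA1 and HNRNPC, which bind nascent RNA, had rows in young mitoplasts alone, at 264 and 99.1 FPKM, and have near-identical copies. HNRNPH1 had one in the senescent libraries alone, where it reached 93.1 FPKM for whole cells and 19.5 for mitoplasts. Of 20 genes known for detained or retained introns, which stay in the nucleus until spliced, 6 had a member. That was 30%, beside 14.9% of all coding genes at 5 FPKM or more. Of their 7 rows, 5 were above 0 in senescent mitoplasts alone. TRA2A, SRSF5 and CLK1 are also among the SR proteins and regulators above, so this list counts some of the same rows. Retained-intron rows held 0.164%, 0.287%, 0.714% and 10.3% of the annotated FPKM of that list in the 4 libraries. Over all coding genes outside the mitochondrial genome they held 6.45%, 6.18%, 6.49% and 9.83%. The list was thus near the library value in senescent mitoplasts and below it elsewhere.

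Factors of nonsense-mediated decay, the pathway that removes RNAs with an early stop codon, were carried to a large part by retained-intron rows in every library. Such rows held 55.8% and 46.9% of the list's annotated FPKM in whole cells of PDL 21 and PDL 60. In the mitoplasts they held 44.2% and 54.5% in that order. They came from 4 of 14 genes at 5 FPKM or more (28.6%), beside 14.9% of all coding genes at that level. CASC3, a core protein of the exon junction complex, had the row with the printed intron of 90 nt at 81.1, 18.2, 38.3 and 12.8 FPKM, with shares of 87.6%, 78.1%, 57.9% and 100%; the microRNA gene MIR6866 is annotated inside it. RBM8A, another core protein of that complex, had the row with the printed intron of 131 nt at 88.7, 24, 65.5 and 46.2 FPKM, with shares of 75.9%, 66.2%, 63.1% and 100%; it overlaps a coding gene on the opposite strand. In CASC3 and RBM8A the level of the row with the printed intron was lower at PDL 60 in both fractions. That row held the majority of its gene in all 4 libraries. A second CASC3 member was at 27.8 FPKM in young mitoplasts, with a share of 42.1%, and was listed at 0 elsewhere. Coding rows of CASC3 were listed at 0 in both mitoplast libraries.

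Cell-division genes had rows that were listed at 0 at one age or in all but 1 library. TOP2A, the topoisomerase that untangles sister chromatids, had one row seen at PDL 21 alone, 43.2 FPKM for whole cells and 38.4 for mitoplasts, and another at 11.7 FPKM in senescent mitoplasts alone. MCM7, a subunit of the replicative helicase, had a row at 26.3 and 18.6 FPKM in the young libraries and 0 in the senescent ones. Only 0.0398% of that row lies outside the coding exons of MCM7. PRC1, which bundles spindle microtubules, had one at 20.7 FPKM in young mitoplasts alone, and HMMR, a spindle protein, one at 17.4 FPKM in senescent mitoplasts alone. Members came from 9 of 29 such genes (31.0%), beside 14.9% of all coding genes at 5 FPKM or more.

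Members came from 4 of 28 matrix genes (14.3%) and 2 of 12 genes of secreted factors (16.7%), beside 14.9% of all coding genes at 5 FPKM or more. COL1A2, a chain of type I collagen, had a row whose level was 320 FPKM in whole cells at PDL 21 and 0 elsewhere, while COL1A1, the other chain, had one at 180 FPKM in senescent mitoplasts and 0 elsewhere. TNFRSF11B, the decoy receptor osteoprotegerin, had a row at 26.7 and 124 FPKM in young and senescent whole cells and 6.05 and 35.4 in young and senescent mitoplasts. Its share was 61.3%, 52.9%, 53.6% and 73.2%, so the row's level was higher in the senescent library of both fractions and its share moved by under 20 points. IGFBP3, which binds insulin-like growth factors, had one at 16.7 FPKM in senescent mitoplasts alone.

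Ribosomal proteins had rows in all libraries. Members came from 13 of 74 genes (17.6%), beside 14.9% of all coding genes at 5 FPKM or more. Of the 16 rows, 8 were above 0 in all 4 libraries. RPS18 was at 763 and 222 FPKM in young and senescent whole cells and 573 and 84.1 in young and senescent mitoplasts, with shares of 54.6%, 39.3%, 34.2% and 28.4%. RPS23 was at 318, 56.8, 463 and 87.2 FPKM with shares of 50.7%, 30.7%, 55.8% and 59.4%. RPL13A was at 137, 65.5, 514 and 0 FPKM, with shares of 20.4%, 25.7%, 52.0% and 0%. All 3 have near-identical pseudogene copies, so their values are uncertain. The list's retained-intron share was 7.34%, 6.0%, 6.82% and 6.53% in the 4 libraries, so senescent mitoplasts did not stand apart here.

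For proteins that work inside mitochondria, 8 of 63 oxidative phosphorylation genes (12.7%) and 8 of 30 factors of mitochondrial RNA and protein synthesis (26.7%) had members. Of all coding genes at 5 FPKM or more, 14.9% had one. NDUFA12 and SDHA, subunits of complexes I and II, had rows at 38.4 and 85.5 FPKM in senescent mitoplasts and 0 elsewhere, the SDHA row with a near-identical copy, SDHAP4; NDUFA12 coding rows were at 191, 203 and 320 FPKM in the other libraries and 0 in that one. NDUFA4, a respiratory chain subunit, had a row at 10.6, 13.5, 74.1 and 0 FPKM, and ATP5F1D, of the ATP synthase, one at 34.5, 15.4, 50.4 and 0 FPKM, in the order young and senescent whole cells, young and senescent mitoplasts. LRPPRC and MRPL3, needed for mitochondrial messenger stability and translation, had rows at 18.7 and 20.1 FPKM in senescent mitoplasts alone. The MRPL3 row has a near-identical copy, MRPL3P1, so that reads of it and of the SDHA row may be split with their copies. HSPA9 and TRAP1, mitochondrial chaperones, had rows in whole cells alone, at 27.1 and 22.9 FPKM for HSPA9 at the 2 ages and 56.0 FPKM for TRAP1 in young cells. GRSF1, which binds mitochondrial RNA, had a row at 4.95, 5.29, 8.55 and 0 FPKM. Over the factors of mitochondrial RNA and protein synthesis, retained-intron rows held 11.5% and 5.88% of annotated FPKM in young and senescent whole cells and 1.50% and 21.6% in young and senescent mitoplasts. None of the 1595 members matched a transcript of the mitochondrial genome by sequence.

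Members differed in build from the 22781 retained-intron rows that were not chosen. Their median length was 588 nt against 744 nt, and 47.5% against 33.1% were at least 450 and under 650 nt long. The median member had 22.1% of its bases outside the coding exons of its gene, against 37.5%, and 161 members (10.1%) against 32.8% of the other rows were at least 50% intronic. The lower quartile of the members was 11.8%, so many rows are mostly exon sequence. A complete intron lay within 340 members (21.3%) and 30.2% of the others. Of the members, 38.6% crossed a donor alone, 34.4% an acceptor alone, 21.1% both and 5.89% neither. The 418 complete introns had a median length of 108 nt, against 236 nt for those of the other rows, and a GC content of 58.6% against 57.6%. Members thus held less intron, and shorter introns, than retained-intron rows in general; 17 of them overlapped an annotated small RNA gene on the same strand and 87 had a near-identical copy elsewhere.

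The intronic part was larger in the members of the senescent mitoplast library. The median was 17.5%, 17.8% and 18.6% of bases for members that reached 5 FPKM in whole cells at PDL 21, whole cells at PDL 60 and mitoplasts at PDL 21, and 25.4% for mitoplasts at PDL 60. Members above 0 in senescent mitoplasts alone had a median of 29.6%, and 100 of these 603 rows (16.6%) were at least 50% intronic. Members above 0 in young mitoplasts alone had a median of 20.9%, with 14 of 292 (4.79%) at least 50% intronic. Of all 161 members at least 50% intronic, the 100 above 0 in senescent mitoplasts alone were chosen through the senescent mitoplast library, which fixes the direction of their share there. Of those chosen by their level in a whole-cell library, 14 were at least 50% intronic and could be compared between the mitoplasts, 4 with a higher share in senescent mitoplasts and 1 with a lower one. Among the less intronic members chosen that way, 60 of 275 were higher and 93 lower, and 14 rows are too few to set the classes apart. Between young and senescent whole cells, 3 of 108 members at least 50% intronic were higher and 4 lower. Length did not set the libraries apart in this way, with medians of 605, 599, 587 and 586 nt.

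**Figure D5:**
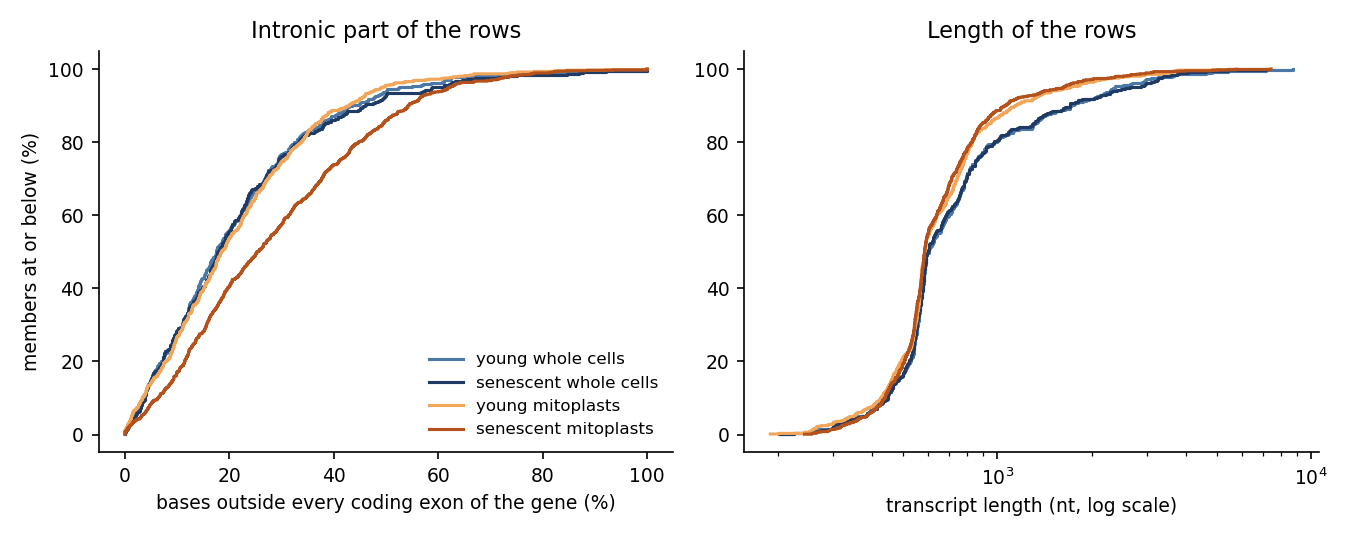
Cumulative percentage of the members at 5 FPKM or more in each library by the intronic part of the row (left, % of bases) and by its length (right, nt, log scale). The curve of senescent mitoplasts lies to the right of the other 3 on the left, with medians of 25.4% against 17.5% to 18.6%, and the 4 medians of length lie between 586 and 605 nt.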

How the data were processed

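FPKM values of transcripts were deposited by the authors, 1 table for each of 4 libraries, per the file headers; TopHat2 2.0.14, Cufflinks 2.2.1, Cuffdiff and the build hg19 are named in the submitters' processing notes, without roles. Neither the annotation release nor the strand setting is stated in the sources used here, so reads of overlapping genes cannot be told apart. Of 185591 annotated rows, 172475 matched GENCODE 29 by transcript identifier; 12917 did not and held 11.4% to 22.6% of annotated FPKM, and 199 identifiers with conflicting genes were left out. Types, geometry, GRCh38 coordinates and sequences came from that release by identifier, while the values rest on hg19. Shares were computed over annotated rows with pandas 2.3.3 in Python 3.11.15, and the calculation was tested on simulated data. Near-identical copies (95% identity over 50% of the row) were searched with BLAST+ 2.17.0. Bases were called intronic if outside every exon of the gene's coding transcripts. Log2 ratios used a pseudocount of 1. Rows were named as the 5 highest and lowest share differences per comparison (gene at 10 FPKM or more, row above 0 in both). The 5 highest levels per library were named too, and the 6 rows with the highest lowest share over all 4 libraries. Up to 4 per gene list, rows that earlier results had named, and the 3 on either side of the threshold were added. Clone names were left out, and a few rows picked by this rule are not reported here. Members and lists were chosen with earlier results of these data known. Alternatives varied the row and gene thresholds, the size, the scaling, the length and the row filter.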

Additional observations from a re-analysis of the deposited data

Results flagged for a closer look

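A total of 8 named rows, of genes at 5 FPKM or more in all 4 libraries, had a share higher by 20 points or more in mitoplasts than in whole cells at one age and lower by 20 points or more at the other; in each case the difference was not tested, as each group is 1 library. The values are the mitoplast minus whole-cell share at PDL 21, the same at PDL 60, and the second minus the first, in percentage points. Values were −29.6 and 21.9 for CASC3 (51.5), the only one of the 8 that was lower in young and higher in senescent mitoplasts. In young mitoplasts a second retained-intron member held the other 42.1% of CASC3. Coding rows of CASC3 were listed at 0 in both mitoplast libraries. The CASC3 values thus describe that row and not all retained-intron rows of the gene. CKB, brain-type creatine kinase, had 77.4 and −53.8 (−131), and RAN had 50.3 and −61.8 (−112). MRPS11, a mitochondrial ribosomal protein, had 60.3 and −34.5 (−94.8). For SMTN the values were 33.7 and −54.9 (−88.6), and for MICAL2 43.2 and −40.5 (−83.8). NDUFA4 had 33.7 and −46.9 (−80.6), and RPL13A had 31.6 and −25.7 (−57.3). CKB, RAN, MRPS11, NDUFA4 and RPL13A were listed at 0 in senescent mitoplasts, so their second value is minus the whole-cell share.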

How the results depend on the processing

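No paired analysis was possible because each group holds 1 library. Of 104 recomputed values, 76 stayed near the reported one, and the others follow. With a size of 10 points, 111 members were higher and 189 lower in senescent than in young whole cells. Keeping members above 0 in both libraries left 24 higher and 29 lower for that comparison, 58 and 26 for senescent against young mitoplasts, 46 and 50 for young mitoplasts against young whole cells, where the order of higher and lower turned, and 51 and 21 for senescent mitoplasts against senescent whole cells. The next 2 alternatives were chosen after seeing the data. Keeping rows with 20% or more intronic bases gave 30 and 49, 274 and 103, 146 and 69, and 320 and 54 in the same order. Without genes of the mitochondrial genome, the retained-intron share of annotated FPKM was 6.45% for young whole cells, 6.49% for young mitoplasts and 9.83% in senescent mitoplasts. Weighting FPKM by length gave 3.35% and 3.11% for young and senescent whole cells, which turned their order, and 7.13% in senescent mitoplasts. Transcripts of 500 nt or more gave 3.97% in young and 11.3% in senescent mitoplasts. Scaling libraries to an equal annotated sum moved the median log2 ratio of members from 0 to 1.32 for senescent against young mitoplasts and to 0.37 for senescent mitoplasts against whole cells; shares do not depend on that scaling. Depth is unknown, and an exact 0 can be a failed or reassigned estimate.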
